A study of Mus musculus with 2 samples.

Results

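The clustered protocadherins are cell-surface adhesion proteins whose genes stand in 3 neighbouring arrays, alpha, beta and gamma, on mouse chromosome 18. The members described here are the protein-coding genes of GENCODE release M21 on that chromosome whose symbol begins with Pcdha, Pcdhb or Pcdhg. There are 57 of them among 21938 protein-coding gene records: 14 alpha, 22 beta and 21 gamma genes. The alpha genes comprise 12 variable genes, of which 2 separate records carry the symbol Pcdha11, and the C-type genes Pcdhac1 and Pcdhac2. The gamma genes comprise 12 of type A, 6 of type B and 3 of type C.

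Open chromatin was measured by DNase-seq, in which DNase I cuts DNA where it is not covered by nucleosomes, in heart tissue of male B6CASTF1/J mice aged 14 days. These mice are first-generation offspring of the strains C57BL/6J and CAST/EiJ. There was 1 group with 2 biological replicates, and 3 males are named in the label of replicate 1 and no number in that of replicate 2. No treatment or other genotype is given by the labels, so the comparisons are between genes within this group, with the values of both replicates.

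In the nervous system each alpha and gamma variable gene has its own promoter and its own large first exon, which is spliced to constant exons shared by the array, whereas beta genes consist of a single large exon. A neuron uses a small, largely random choice of these promoters, which gives it a surface identity, while the C-type genes are used more evenly. The choice is known to depend on the DNA-binding protein CTCF and on cohesin, which bring a chosen promoter to distant enhancers, and on DNA methylation. Most variable promoters share a conserved sequence element with the core letters CGCT, and alpha variable genes carry a further CTCF site inside the first exon. Sites in these genes are given by their distance from the start.

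A promoter was taken as 1 kb either side of any annotated start, and it was called open when it held a peak of the larger deposited peak set in both replicates. Of the 57 genes, 24 (42.1%) were open, against 68.8% of all protein-coding genes. Another 13 (22.8%) had a peak in 1 replicate, 10 of them in replicate 1, against 2.90% of all protein-coding genes, and 20 (35.1%) had none, against 28.3%. Open were 2 of 14 alpha genes (14.3%), 10 of 22 beta genes (45.5%) and 12 of 21 gamma genes (57.1%). The order of beta and gamma depended on the call: bases with an FDR under 0.05 in both replicates were found at 13 beta genes (59.1%), 12 gamma genes (57.1%) and 69.4% of all protein-coding genes, and alpha stayed at 2. Even the open genes had low values, with a median peak signal of 0.621 over members against 6.60 over all open protein-coding genes. Peak signal is the authors' read-depth normalised height of the highest peak at the promoter, taken as the mean of both replicates. Since heart is a mixture of cell types, a lower signal from fewer cells with an open promoter and one from a less open promoter in each cell cannot be told apart.

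**Figure D1:**
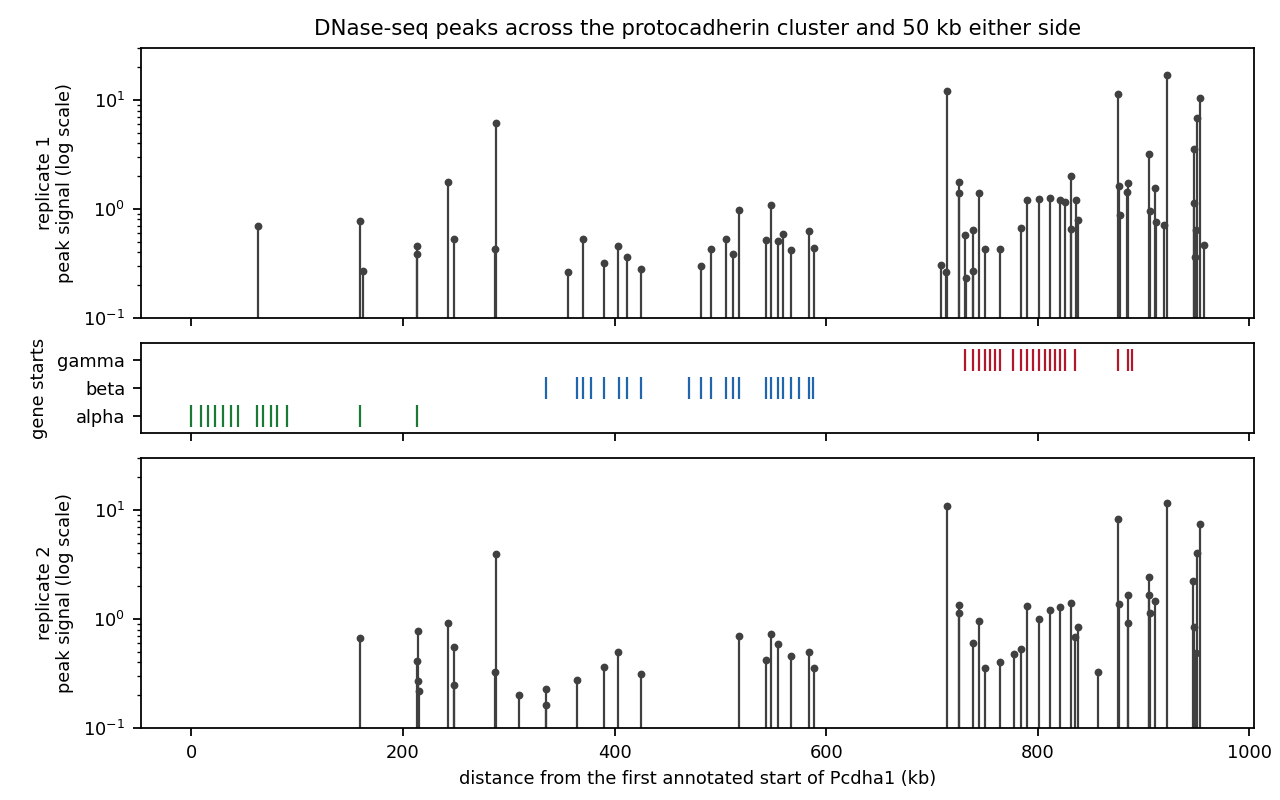
Peak signal (vertical, log scale) of each DNase-seq peak against distance from the first annotated start of Pcdha1 in kb, with replicate 1 above, replicate 2 below and the annotated start of each gene as a tick between them. The alpha variable genes carry a single peak, in replicate 1, while the gamma genes and the 50 kb after them hold most of the tall peaks.

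Among gamma genes, Pcdhgc3 was the most accessible member, and it was the only one above the median of open genes. Its peak reached 11.4 in replicate 1 and 8.21 in replicate 2 (mean 9.79 ± 2.25 SD, n = 2), which exceeded 67.0% of all open protein-coding genes. The peak lay across the annotated start, at chr18:37806201-37806440 (mm10), and the lowest false discovery rate (FDR) of DNase cutting there was 2.27e-56 in replicate 1 and 1.38e-29 in replicate 2. Its centre also lay in an exon of another annotated gene, BC037039. A start of BC037039 was within 1 kb of the second, lower region at the Pcdhgc3 promoter (1.64 and 1.37). The next member, Pcdhgc4, had 1.74 and 1.65 (1.69 ± 0.064 SD), and exceeded 18.7% of open genes. Pcdhgc4 had its highest peak inside an exon, centred 519 bp after the nearest start in replicate 1 and 511 bp after it in replicate 2. Pcdhgc5, the remaining C-type gamma gene, was without a promoter peak. In the nervous system Pcdhgc3 is among the widely expressed isoforms, and Pcdhgc4 is known for its part in neuronal survival.

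Of the 6 gamma B genes, 5 were open, 4 of them at nearly the same height. Pcdhgb4 had 1.21 and 1.32 in replicates 1 and 2 (1.27 ± 0.075 SD). Pcdhgb7 had 1.22 and 1.30 (1.26 ± 0.057 SD), and Pcdhgb6 had 1.27 and 1.20 (1.23 ± 0.049 SD). The differences between these 3 genes were no larger than the spread between replicates. Pcdhgb5 followed with 1.23 and 0.997 (1.11 ± 0.163 SD), and Pcdhgb1, the first B gene of the array, was lower, at 0.426 and 0.358. Pcdhgb2 had no peak. The neighbouring Pcdhgb8, which GENCODE lists as a polymorphic pseudogene and which is therefore no member, had 1.99 and 1.40 at its start.

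Among the 12 gamma A genes, 5 were open: Pcdhga2, Pcdhga3, Pcdhga5, Pcdhga7 and Pcdhga12. Pcdhga3 had 1.40 and 0.967 (1.19 ± 0.309 SD), a value that overlapped those of the B genes. Pcdhga12, the last of the type A genes, had 1.21 and 0.680 (0.947 ± 0.376 SD), and its peak centre lay 147.5 and 131.5 bp after the nearest start rather than before it. Pcdhga11 had 1.15 in replicate 1 and no peak in replicate 2, Pcdhga1 had 0.574 in replicate 1, and Pcdhga6 had 0.477 in replicate 2. Genes with and without peaks alternated along the array: Pcdhga8, Pcdhga9 and Pcdhga10, which had none, stood between open B genes at intervals of a few kb.

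Open beta genes had a lower median signal than open gamma genes, with overlapping ranges. The 10 open beta promoters had a median of 0.473 and a range from 0.297 to 0.904. The 12 open gamma promoters had a median of 1.15 and a range from 0.392 to 9.79. By type, the median of open gamma genes was 0.621 for A, 1.23 for B and 5.74 for C. In replicate 1 the medians were 0.486 for beta and 1.22 for gamma genes, and in replicate 2 they were 0.474 and 0.982. By median signal of open genes, both replicates put beta below gamma. The highest beta gene, Pcdhb16, had 1.09 and 0.722 (0.904 ± 0.257 SD), and exceeded 10.1% of open genes. Pcdhb14 came next, at 0.972 and 0.692 (0.832 ± 0.197 SD). These 2 were also the only beta genes with a peak of the smaller deposited set in both replicates.

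Calls at many beta promoters differed between replicates. A peak in 1 replicate alone was seen at 9 of 22 beta genes (40.9%), against 2.90% of all protein-coding genes. Among the 9 were Pcdhb18 (0.589), Pcdhb12 (0.532), Pcdhb3 (0.525) and Pcdhb11 (0.433), all in replicate 1. Pcdhb1, the first beta gene, had a peak of 0.227 in replicate 2 alone. Of the 7 beta genes with a peak in replicate 1 alone, 5 had no base with an FDR under 0.05 in replicate 2, and Pcdhb11 and Pcdhb18 had 23 and 13 such bases, the lowest at 0.0433 and 0.0483. Counted in replicate 1 alone, 17 of 22 beta and 14 of 21 gamma genes had a promoter peak, against 70.4% of all protein-coding genes. In replicate 2 alone the counts were 12 and 13, against 70.0%, so the replicates differed in which array had the larger share. Replicate 1 held more peaks in all, 143122 against 125118, and the part of depth in these calls was not tested. Pcdhb4, Pcdhb9 and Pcdhb20 had no peak in either replicate.

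Open beta genes gathered at the far end of the array, nearest the gamma genes. From Pcdhb14 to Pcdhb22, 7 of 9 genes were open, whereas from Pcdhb1 to Pcdhb13, 3 of 13 were open and 8 had a peak in 1 replicate. This boundary was chosen after the values were seen. Repeated sequence, measured as described below, also differed along the array. Its share within 1 kb ran from 5.95% (Pcdhb5) to 19.3% (Pcdhb9) over Pcdhb4 to Pcdhb12. From Pcdhb14 to Pcdhb22 it was highest at Pcdhb15 (3.92%). The open Pcdhb5, Pcdhb6 and Pcdhb8 had 5.95%, 10.4% and 8.39%. Pcdhb1, Pcdhb2, Pcdhb3 and Pcdhb13 had 0% and were not open. The part of repeated sequence in this pattern was not tested. Pcdhb22, the last beta gene, had 0.440 and 0.358, with its peak centre 58.5 and 44.5 bp before the second of its annotated starts.

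**Figure D2:**
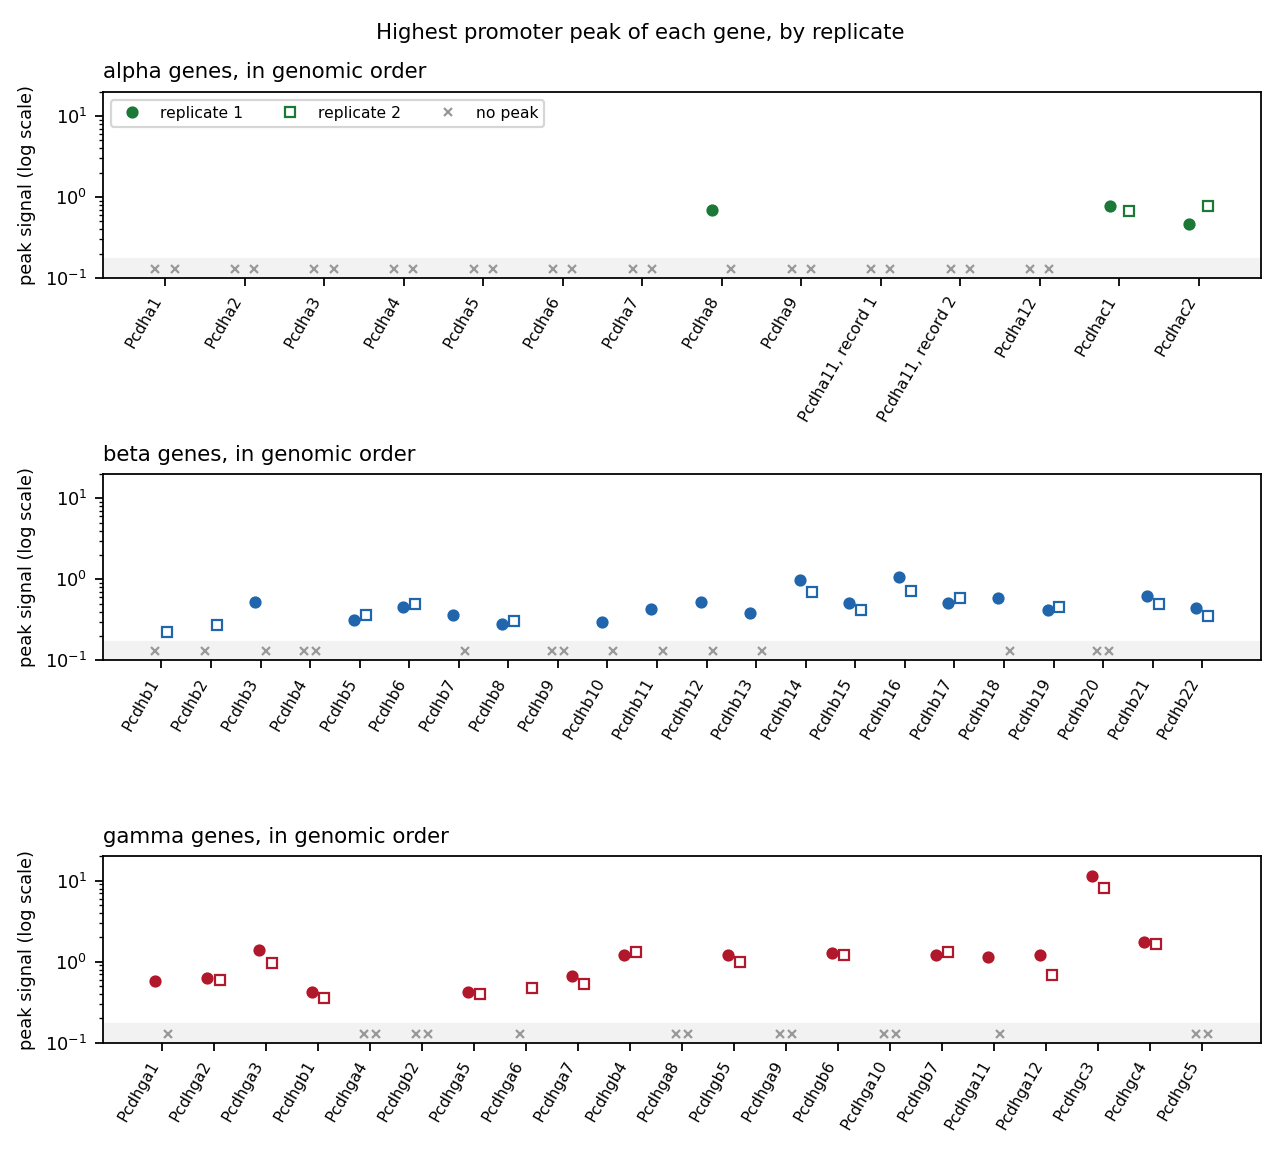
Highest promoter peak signal (vertical, log scale) of each of the 57 genes in genomic order, with filled circles for replicate 1, open squares for replicate 2 and grey crosses for no peak. Crosses alone stand at 11 of 12 alpha variable genes, most beta genes lie below 1, and Pcdhgc3 stands above all others at 11.4 and 8.21.

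In the alpha array peaks of both replicates stood at the C-type genes and at no variable gene. From Pcdha1 to Pcdha12, 11 of 12 variable genes were without a promoter peak, and their windows held no base with an FDR under 0.05. The exception was Pcdha8, with a peak of 0.695 in replicate 1, centred 519.5 bp after the start, where 209 bases had an FDR under 0.05 and the lowest was 1.8e-05. Replicate 2 listed no such base at Pcdha8. Pcdhac1 had 0.773 and 0.674 (0.724 ± 0.070 SD), and Pcdhac2, the last alpha gene, had 0.461 and 0.782 (0.621 ± 0.227 SD). The C-type genes of the alpha array did not differ from each other beyond the spread between replicates, and both lay below the open gamma B genes other than Pcdhgb1.

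Repeated sequence was frequent at the alpha variable genes. The share of 36-base words that occurred more than once in the genome was taken within 500 bp of the first start. Its median was 20.5% for alpha variable genes (range 7.46% to 27.4%), and both C-type alpha genes had 0%. Over every 40th protein-coding gene, 549 in all, the median was 0% and the range 0% to 100%. Beta genes had a median of 0% and a range up to 14.5%, the highest at Pcdhb12, which was not open. Over the whole promoter window of 1 kb either side, the median for alpha variable genes was 10.7% (range 6.51% to 24.4%). Reads from such words may not be placed uniquely, and how they were handled is not given in the sources used here. The open gamma B genes had a median of 16.8% within 500 bp and 9.72% within 1 kb. Pcdha8 had 7.46% within 500 bp, the lowest of the alpha variable genes, and its peak lay across the edge of that window. Within 1 kb Pcdha8 had 19.3%, and Pcdha9 was lowest there (6.51%) without a peak. The part of repeated sequence in the missing alpha peaks was not tested.

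The composition of the start regions separated alpha variable from beta genes, and gamma genes overlapped both. The CpG ratio compares the observed number of CG dinucleotides with that expected from the base content, and promoters with a high ratio are usually unmethylated and open in most tissues. Within 500 bp of the first start its median was 0.684 for alpha variable genes, 0.594 for gamma genes and 0.378 for beta genes, against 0.552 for all protein-coding genes. The ranges were 0.569 to 0.749 for alpha variable, 0.233 to 0.864 for gamma and 0.158 to 0.519 for beta genes. At a ratio of 0.6 or more, 97.2% of all protein-coding genes were open. The 11 alpha variable genes in that class were all among the 281 protein-coding genes of the class that were not open. The median GC content within 500 bp was 45.1% for alpha variable genes and 47.5% for gamma B genes. It was 54.7% for all protein-coding genes, and the class was not matched for GC content. Gamma genes in the class were open in 7 of 10 cases, the gamma B genes among them in 4 of 4 and the gamma A genes in 1 of 4.

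Beta genes, by contrast, all had a ratio under 0.6 (range 0.158 to 0.519). In that class 44.6% of all protein-coding genes were open, and 10 of 22 beta genes (45.5%) were, a share near the background. Gamma genes under 0.6 were open in 5 of 11 cases. Open beta genes were found at both low and middle ratios, such as Pcdhb22 (0.212), Pcdhb16 (0.219), Pcdhb6 (0.447) and Pcdhb17 (0.457). The ratio of Pcdhb22 was taken around its first start, whereas its peak was centred just before its second. Pcdhb1 (0.519), the highest, and Pcdhb9 (0.158), the lowest, were not open.

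**Figure D3:**
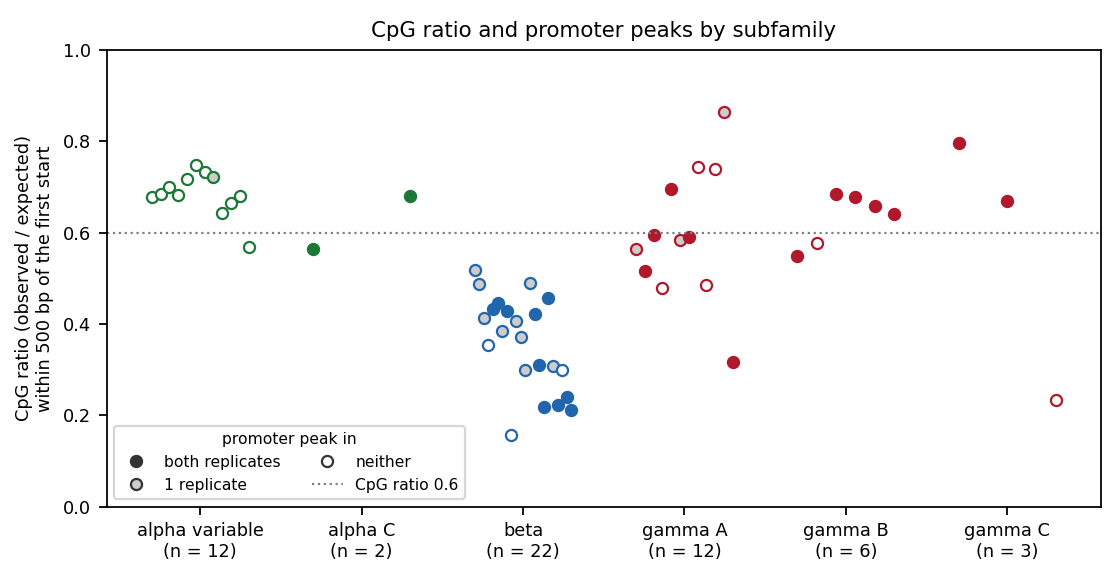
CpG ratio (observed over expected, vertical) of each gene by subfamily, with filled points for a promoter peak in both replicates, grey points for 1 replicate and white points for neither, and a dotted line at 0.6. Alpha variable genes lie mostly above the line with no filled point, and beta genes all lie below it with 10 filled points.

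The peaks at open beta genes were narrow, single and placed just before the start. In both replicates 9 of 10 open beta genes had the centre of the highest peak within 200 bp upstream of the nearest start, as did 63.0% and 60.8% of all open genes in replicates 1 and 2. The peak was under 200 bp wide at 9 of 10 open beta genes in both replicates, against 34.0% and 28.4% of all open genes. All 10 open beta genes had a single promoter peak, whereas 31.8% and 35.5% of all open genes did. Over all peaks of the genome the median width was 180 bp in both replicates. All open genes had a median signal of 6.60, against 0.473 for open beta genes. The part of signal in the width and number of peaks was not tested. The 5 open gamma B genes also had a single peak under 200 bp wide in both replicates, centred within 200 bp upstream at 4 of them. Open gamma A genes varied more, with 3 of 5 centred upstream, and widths under 200 bp at 5 of 5 in replicate 1 and 3 of 5 in replicate 2. Over all 12 open gamma genes 8 (66.7%) were centred within 200 bp upstream, a share near that of all open genes. Pcdhgc3 and Pcdhgc4 had 2 promoter peaks each and were wider, at 240 and 241 bp in replicate 1.

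Bases with an FDR under 0.05 were also most frequent near the start at beta and gamma A and B genes. They come from the same alignments as the peaks and are not independent of them. The share of beta genes with such a base was highest 30 bp before the start in replicate 1, at 68.2% (15 of 22), and 10 bp before it in replicate 2, at 50% (11 of 22). Gamma A and B genes reached 66.7% (12 of 18) and 44.4% (8 of 18) at the same distances. They had a second, lower rise after the start, with 4 of 18 genes at 270 bp in both replicates. Over all protein-coding genes the share was highest 30 bp after the start, at 58.4% and 58.5%, and it declined slowly into the gene.

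**Figure D4:**
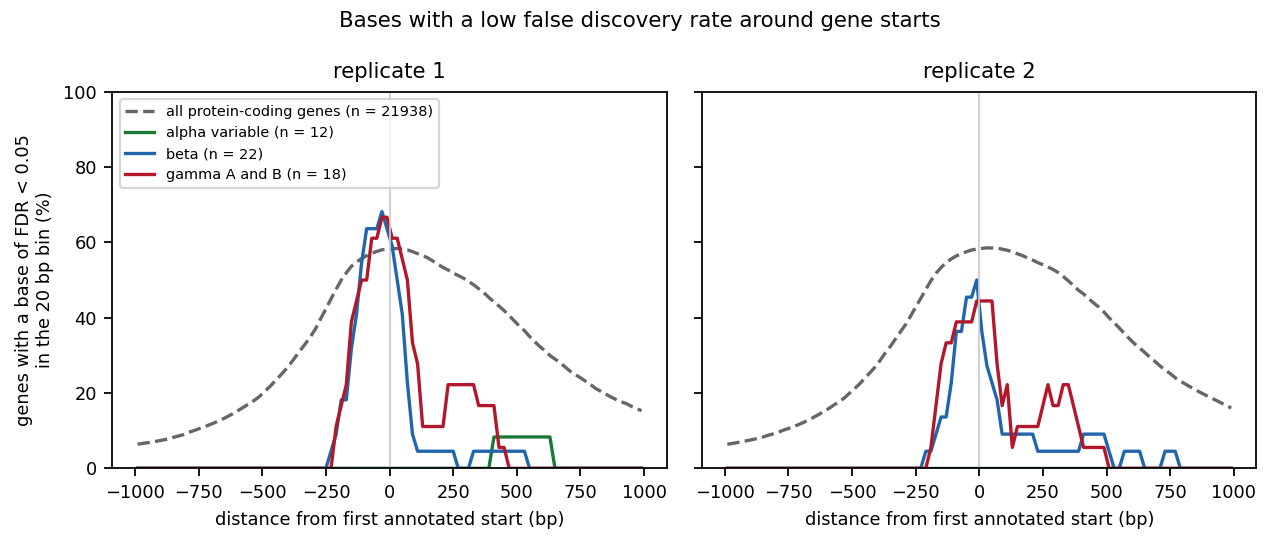
Share of genes with at least 1 base of FDR under 0.05 in each 20 bp bin (vertical, percent) by distance from the first annotated start (horizontal, bp), for replicates 1 and 2. Beta and gamma A and B genes form a narrow crest at the start, all protein-coding genes a broad one, and alpha variable genes show 1 gene in replicate 1 and none in replicate 2.

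Footprints are short stretches protected from cutting inside open DNA, as left by a bound protein. Both replicates listed a footprint in the promoter of 24 of the 57 genes, against 67.2% of all protein-coding genes, with 2 alpha, 10 beta and 12 gamma genes. Open members had few: the median was 2 per promoter in each replicate, against 8 over all open genes. Pcdhgc3 had 8 in replicate 1 and 14 in replicate 2, the most of the members in each replicate.

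At 15 of the 24 open members (62.5%) a footprint in the 200 bases before the first start was listed at the same place in both replicates, meaning an overlap of at least 50% of the longer one. The share over all open genes was 64.6%. In Pcdhb14 it ran from 71 to 42 bases before the start in replicate 1 and from 70 to 43 in replicate 2. In Pcdhb21 it ran from 59 to 31 and from 58 to 32 bases before the start. In Pcdhgb6 it ran from 91 to 63 and from 91 to 64 bases before the start. Among the 25 footprints shared in this way the boundaries lay within 1 base of each other in 11, and the largest difference was 10 bases. Pcdhgb7 (76 to 50 and 75 to 49 bases before the start), Pcdhga3 (51 to 22 and 52 to 24) and Pcdhac1 (77 to 52 and 76 to 50) had footprints of like length and place.

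Many of these footprints covered the core letters of the conserved element. The 4 letters CGCT, searched on both strands, lay in the 200 bases before the start of 54 of 57 members (94.7%), including 11 of 12 alpha variable genes, and of 56.7% of all protein-coding genes. Among open genes the letters lay there in 22 of 24 members (91.7%) and in 72.1% of all open protein-coding genes. Among the 15 members with a footprint shared by the replicates, CGCT lay wholly within one at 11 (73.3%), against 34.4% of the 9745 open genes with such a footprint. In 11 of these 11 a match was on the strand of the gene, against 57.2% of the open genes with the letters in a shared footprint. Where both footprints were at least 20 bases long, the counts were 9 of 10 members and 32.6% of all open genes with one. On the strand of the gene, the first base of CGCT lay from 88 bases before the start in Pcdhgb5 to 36 bases before it in Pcdhga3. A further shared footprint of Pcdhgb4, across its start, held CGCT on the opposite strand, 4 bases after the start. Pcdhgc3 had 2 shared upstream footprints, and neither held the letters. This search was added after the footprint positions were seen, and a match describes the letters only.

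**Figure D5:**
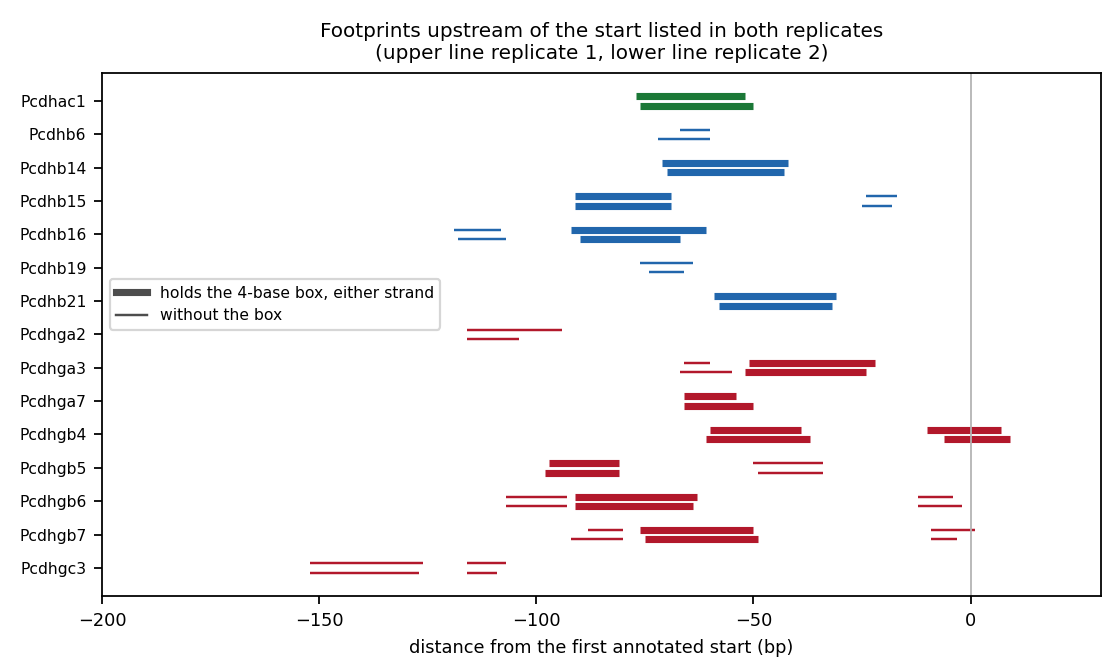
Footprints within 200 bp upstream of the first start (horizontal, bp) that both replicates list, for 15 genes, with replicate 1 as the upper and replicate 2 as the lower line, green for alpha, blue for beta and red for gamma genes. Thick lines hold the 4-base box CGCT on either strand, and most of them lie between 100 and 20 bp before the start.

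Exact matches to the CTCF consensus stood at alpha variable genes, mostly without a peak. The 12-base consensus, searched on both strands, had an exact match within 1 kb of the first start at 6 of 12 alpha variable genes (50%), 0 of 22 beta genes and 0 of 21 gamma genes, against 1.72% of all protein-coding genes. All 6 matches lay in the gene's own first exon, on its strand, 542 to 586 bp after the start. In the window of 300 to 700 bp after the start on the gene strand, 0.132% of all genes held one. With up to 1 mismatch the counts there were 9 of 12 and 2.11%. The genes with an exact match were Pcdha1, Pcdha4, Pcdha6, Pcdha7, Pcdha8 and Pcdha12. One of the 6, in Pcdha8, lay in a peak and in a footprint of replicate 1, and none lay in a peak of replicate 2. Of 13119 exact matches in the genome, 44.3% lay in a peak of both replicates. The peak of Pcdha8 was therefore over its exonic CTCF match and not at its start.

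Across the cluster and 50 kb either side, peaks of both replicates merged into 76 regions, of which 43 (56.6%) held a peak of each replicate. The share over the genome was 65.9%. Shared regions were sparse over the alpha genes, at 15.5 per Mb, stood at 38.5 per Mb over the beta genes, and reached 100 per Mb over the gamma genes and 120 per Mb in the 50 kb after them. Chromosome 18 as a whole had 38.2 per Mb. The 50 kb before Pcdha1 held no region in either replicate.

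Inside the cluster 11 shared regions touched no promoter of a protein-coding gene, and 6 of these lay within 1 kb of the start of another annotated gene. One of the 6 was the Pcdhgb8 start described above. Others were at Gm38097 (chr18:37172281-37172460, 1.75 and 0.925) and Gm10544 (chr18:37178301-37178640, 0.532 and 0.549), both inside the alpha array. The transcript 3222401L13Rik, between Taf7 and Pcdhga1, had 2 (chr18:37655521-37655700, 1.78 and 1.35, and chr18:37655741-37655960, 1.40 and 1.14). Gm26672, next to Pcdhga12, had 0.787 and 0.853 at chr18:37768181-37768380.

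The remaining 5 had no annotated start within 1 kb, and 2 of them lay between the alpha and beta arrays, where an enhancer of the alpha genes is known. The stronger was 30.7 kb after the last alpha exon, at chr18:37218281-37218440, with 6.16 and 3.99 (5.07 ± 1.54 SD). That value was above the promoter signal of every member but Pcdhgc3. Just before it, chr18:37217181-37217540 had 0.426 and 0.328, and it was the only shared region of the 43 with an exact CTCF match, on the strand opposite to the alpha genes. Over the genome 5.62% of shared regions held one. The other 3 were at the end of the gamma array, among its constant exons: chr18:37835281-37835840 (3.22 and 2.42), chr18:37836540-37836920 (0.965 and 1.13) and chr18:37841381-37841560 (1.55 and 1.46), the last inside the final exon shared by all gamma genes. Named enhancers were not matched to these positions.

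Of the 10 strongest shared regions, 4 lay in the 50 kb after the gamma genes, all inside Diaph1, a formin that assembles actin filaments and whose gene runs toward the cluster. The strongest of all was 10.4 kb after the last gamma exon, close to an annotated internal start of Diaph1 (chr18:37852221-37852420, 16.8 and 11.6, mean 14.2 ± 3.68 SD). Those at chr18:37883561-37883720 (10.4 and 7.53), chr18:37880261-37880460 (6.79 and 4.08) and chr18:37877221-37877600 (3.57 and 2.21) lay 41.8, 38.5 and 35.5 kb after the gamma genes, away from annotated starts. In this interval lie enhancers known to serve the beta and gamma genes, and which gene these regions serve was not measured here. The second strongest was the promoter of Taf7, a subunit of the general transcription factor TFIID encoded between the beta and gamma arrays, with 12.1 and 10.9 (11.5 ± 0.795 SD). Slc25a2, next to Taf7, had a peak of 0.305 in replicate 1 alone, and the read-through records Gm42416, Gm37013 and Gm37388 inside the alpha array had none.

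All 12 non-clustered protocadherins were open, against 68.8% of all protein-coding genes. Their median signal was 3.29, against 6.60 over all open genes. Pcdh17 (9.84 and 8.39) and Pcdh1 (6.92 and 4.77) were highest. Of the 12, 3 (Pcdh15, Pcdh11x and Pcdh20) lay below the median of open clustered genes. Of 19 classical cadherins 16 were open, with a median of 1.02, led by Cdh24 (6.61 and 6.07) and Cdh2 (4.11 and 5.32), the N-cadherin of cardiomyocyte junctions. Cdh19 had no peak. The Ugt1a cluster, which also joins variable first exons to shared ones and codes for liver enzymes, was open at 2 of 9 genes, Ugt1a7c (0.993 and 0.776) and Ugt1a6a (0.603 and 0.770), while Ugt1a2 and Ugt1a5 were among the 6 without a peak. Its genes had CpG ratios from 0.107 to 0.270, well below those of alpha variable genes.

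Regulators of protocadherin promoter choice were all open, 16 of 16, against 68.8% of all protein-coding genes. Their median signal was 10.2, against 6.60 over all open genes. All but Stag1, Dnmt3a and Dnmt1 had a CpG ratio of 0.6 or more, a class in which 97.2% of all genes were open. Stag1 (27.1 and 20.3) and Smc3 (21.7 and 16.6), both of cohesin, were highest, and Ctcf had 8.89 and 9.80. The intracellular partners of the proteins were open at 7 of 7 genes, led by Pdcd10 (18.5 and 13.9) and the focal adhesion kinase Ptk2 (15.2 and 11.7). Their median signal was 9.78, and Ptk2b was lowest (0.738 and 0.603). All of them but Ptk2b and Fyn had a CpG ratio of 0.6 or more.

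The tissue label was checked on markers. Cardiomyocyte markers were open at 8 of 8 genes, with a median signal of 2.28, fibroblast markers at 4 of 4 and endothelial markers at 4 of 4, and hepatocyte markers (Alb, Apoa1, Cps1 and Ttr) at 0 of 4. Neuron and glia markers, of interest because neurons are the main known users of the cluster, were open at 9 of 11 genes, with a median signal of 2.94, led by Snap25 (6.54 and 5.83) and Gfap (4.93 and 4.04). Elavl3 and Sox10 had no peak in either replicate. With 68.8% of all protein-coding genes open, and a neuronal median above that of the cardiomyocyte markers, these counts separate tissues weakly. A marker with an open promoter does not show that its cell type is present, and the part of any cell type in the protocadherin peaks was not tested.

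Replicate 1 had the higher signal at 16 of 24 open members (66.7%), at 5 of 10 beta and 10 of 12 gamma genes, and at 80.7% of all open genes. On the log2 scale the median difference, replicate 1 less replicate 2, was 0.14 for members and 0.26 for all open genes. With 1 group of 2 replicates no test was made, and genes are not replicates, so the counts are given as descriptions.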

How the data were processed

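DNase-seq of heart was analysed in 1 group of 2 biological replicates. The labels do not say whether the replicates were pools of separate animals, so the SD covers the spread between these samples only. Per the submitters' processing notes, each list comes from the filtered alignment of 1 replicate to mm10, without pooling. The peak signal was normalised to read depth by the authors, with the exact scaling not stated. The deposited FDR (q-value) list gives runs of bases with an FDR under 0.05. Deposited footprints were used by position alone, since their other column holds 0.01 throughout. Not given in the sources used here are callers, versions, read totals and the handling of reads from the CAST/EiJ parent; depth is thus unknown, and no counting interval is printed.

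The members and gene lists were chosen with earlier results of these data known. One listed neuron and glia marker is not reported here and was left out of its list's count. Promoters came from GENCODE M21, 1 kb either side of any start on chromosomes 1 to 19, X and Y, and each gene took its highest peak. Named are the 15 highest open members, the 8 highest with a peak in 1 replicate, the C-type genes, the first and last gene of each array, the 10 strongest shared regions, all shared regions of the cluster away from promoters, and from each list the 2 highest genes and up to 2 without a peak; Pcdhgb1, Ctcf, the genes of the lowest CpG ratios, and those named by a count or a footprint were added after their values were seen. CpG ratios, CTCF consensus matches and 36-base words were read from the mm10 reference (word shares of all genes from every 40th gene), with Python 3.11.15, numpy 2.4.6, pandas 2.3.3 and numba 0.67.0. The overlap code recovered 100% of 2000 planted promoter overlaps. Alternatives were other windows, starts, peak sets, FDR limits and each replicate alone.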

Additional observations from a re-analysis of the deposited data

How the results depend on the processing

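The 24 open members were the same genes with windows of 500 bp or 2 kb, with the most upstream start alone, or with peaks at the promoter of a single gene. Stricter peaks moved the counts. With the smaller peak set 12 members were open, and 2 beta genes, while alpha kept 2 and gamma 8, against 65.3% of all protein-coding genes. A base with an FDR under 0.001, an alternative chosen after seeing the data, also gave 12 members and 2 beta genes, against 65.8%. A base with an FDR under 0.05 gave 27 members, 13 beta and 12 gamma genes. With the upper 50% of peaks 7 members were open, with alpha 0, beta 0 and gamma 7, against 62.3% of all protein-coding genes, and 23 regions were shared. In each replicate alone beta genes with a peak numbered 12 to 17, regions 55 to 67, and those of the cluster away from promoters 15 to 17. These settings hold fewer peaks or drop the need for both replicates. Of the 16 named open genes, 12 had a value in the smaller peak set and 7 in the upper 50% of peaks. No paired analysis was possible because there is 1 group. With depth unknown, a missing peak sets no upper limit.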
